A study of Homo sapiens with 6 samples.

Results

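The microRNAs described here are the miR-199 and miR-214 families, whose genes lie in introns of the dynamin genes DNM1, DNM2 and DNM3. Their 6 entries, miR-199a-5p, miR-199a-3p, miR-199b-5p, miR-199b-3p, miR-214-5p and miR-214-3p, were picked by name out of the 28846 annotated small RNAs listed for each library, 2596 of which are microRNAs. They were picked with the RUNX1 against control comparison of these libraries already known, so their levels and fold changes in it are a description and carry no P-value. In control cells the data held 1 of these microRNAs, miR-199b-5p, at 347 ± 27.3 CPM (counts per 1000000 after scaling, SD, n = 3), and almost none of the others. In RUNX1 cells both arms of miR-214 were present at low counts, 45 for the 5p and 60 for the 3p arm over 3 libraries, against 0 and 1 in control cells. miR-199b-5p overlapped between the conditions, and the direction of its small difference depended on how the libraries were scaled.

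K562 is an established human line grown from a leukemia with erythroid features. The control cells carried the lentiviral vector SIEW, which makes GFP, and the RUNX1 cells carried SIEW RUNX1, which makes human RUNX1 together with GFP, so that vector and GFP were common to both. Each condition had 3 libraries, made from independent transductions, and RNA was taken after 10 days in culture. The TruSeq Small RNA kit was used on 1000 ng of total RNA per library, and the sources used here do not say whether these cells were sorted for GFP.

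MicroRNAs are cut from hairpin precursors, and the 5′ and the 3′ arm of a hairpin can each give a mature microRNA. The bases 2 to 8 of the mature strand, the seed, guide it to its target messages. The miR-199a-2 and miR-214 hairpins are processed from a common long transcript, DNM3OS, which runs against DNM3, and both families are best known from mesenchymal tissue such as developing skeleton, muscle and fibrotic stroma, where they are associated with collagen-producing cells. Dynamins are GTPases that pinch vesicles off membranes.

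The mature sequences are shown because a read can be given to an entry only where its sequence is unlike that of the others. They were taken from RefSeq on GRCh38.p14, where 5 of the 6 names were found. No sequence was found under the name miR-199b-5p, so its seed and number of loci are not given here. In the sequences below the seed is in capitals.
hsa-miR-199a-5p: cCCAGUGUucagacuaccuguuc
hsa-miR-199a-3p: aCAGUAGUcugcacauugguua
hsa-miR-199b-3p: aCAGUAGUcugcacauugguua
hsa-miR-214-5p: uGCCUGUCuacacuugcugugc
hsa-miR-214-3p: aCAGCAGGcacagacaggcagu
The 3p arms of miR-199a and miR-199b had the same mature sequence, so a read of it names neither gene. This 3p sequence was annotated at 3 loci, in MIR199A2 (chr1:172144554-172144575), MIR199A1 (chr19:10817429-10817450) and MIR199B (chr9:128244745-128244766), all on the minus strand. The 5p sequence of miR-199a was annotated at 2 loci, in MIR199A2 (chr1:172144592-172144614) and MIR199A1 (chr19:10817469-10817491). Each miR-214 sequence was annotated at 1 locus, chr1:172138857-172138878 for the 5p arm and chr1:172138816-172138837 for the 3p arm. The seeds of the miR-199 3p arm, CAGUAGU, and of miR-214-3p, CAGCAGG, are different, and among these 5 sequences only the identical miR-199 3p arms shared a seed.

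By GENCODE 29 on GRCh38, all 4 hairpin genes lay in introns of a dynamin gene and on its opposite strand. MIR199B (chr9:128244721-128244830) was in DNM1 and MIR199A1 (chr19:10817426-10817496) in DNM2. MIR199A2 (chr1:172144535-172144644) and MIR214 (chr1:172138798-172138907) were in DNM3 and also in an exon of DNM3OS, on its strand, with 5627 bases between them. The MIR214 hairpin is shown because both of its arms gave counts in RUNX1 cells, with the 5p arm first and the mature arms in capitals.
MIR214, minus strand: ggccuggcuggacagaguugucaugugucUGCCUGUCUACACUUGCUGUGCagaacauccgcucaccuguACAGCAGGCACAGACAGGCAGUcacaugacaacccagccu
On the other strand of the same site lies MIR3120, so a count of miR-214 can be told from one of miR-3120 only by strand. miR-3120-3p is complementary to miR-214-5p over 21 bases, and miR-3120-5p to miR-214-3p over 18 bases.
hsa-miR-3120-3p: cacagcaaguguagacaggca
hsa-miR-3120-5p: ccugucugugccugcuguaca
The miR-3120 entries held 3 counts for the 3p arm and 2 for the 5p arm over all 6 libraries, against 45 and 61 for miR-214-5p and miR-214-3p.

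The control libraries held 1618248 to 6193319 counts and the RUNX1 libraries 7918551 to 15245007. The spread between replicates exceeded counting noise: the chi-square per degree of freedom was 9.62 to 21.9 between control libraries, while RUNX1 replicate 3 stood apart from the other RUNX1 libraries (314 and 451, against 56.3 between replicates 1 and 2). MicroRNAs took 81.4% to 82.1% of control counts and 89.5% to 91.9% of RUNX1 counts. TMM, which takes most small RNAs to be unchanged, raised the effective size of every control library (factors 1.23 to 1.31) and lowered that of every RUNX1 library (0.735 to 0.866). Control and RUNX1 library names differ in a letter. Should it stand for the preparation, that cannot be told apart from the condition. RUNX1 messenger RNA is not measured in small RNA libraries, so the over-expression itself could not be checked in the counts. Levels are given as CPM, the count per 1000000 of the TMM-scaled library size, and fold changes as RUNX1 against control.

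For miR-214, counts were near absent in control and present in every RUNX1 library. In the order of replicates 1, 2 and 3, the control libraries held 0, 0 and 0 counts of miR-214-5p, and the RUNX1 libraries 24, 10 and 11. Of miR-214-3p, the control libraries held 0, 1 and 0 counts, and the RUNX1 libraries 21, 9 and 30. Every RUNX1 library lay above every control library for each arm, as did 13.8% of the 3084 small RNAs with at least 1 count, a share from which nothing is read because the microRNAs were chosen with this contrast known. In bulk RNA like this, fewer cells that make a microRNA and less of it in each cell cannot be told apart.

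In CPM, miR-214-5p was at 2.08, 1.60 and 1.61 in RUNX1 replicates 1, 2 and 3, a mean of 1.76 ± 0.277 (SD, n = 3), and at 0 in each control library. miR-214-3p was at 1.82, 1.44 and 4.38 CPM in RUNX1 replicates 1, 2 and 3, a mean of 2.55 ± 1.60 (SD, n = 3), against 0.0413 ± 0.0716 in control (SD, n = 3). The 5p level was much the same in the 3 RUNX1 libraries, and the spread of the 3p level came from replicate 3. Summed over both arms, miR-214 was at 3.90, 3.04 and 5.98 CPM in RUNX1 and at 0, 0.124 and 0 CPM in control libraries, with means of 4.31 ± 1.51 and 0.0413 ± 0.0716 (SD, n = 3 each).

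The depth limited these values on the control side. In control replicate 1, the smallest library, 3 counts correspond to 1.85 per 1000000 of total counts, above the 1.57, 1.18 and 1.39 per 1000000 that miR-214-5p reached in RUNX1 replicates 1, 2 and 3. On the TMM scale 3 counts in that library are 1.43 CPM, just below the RUNX1 levels of 1.60 to 2.08 CPM, so its 0 alone tells little at this depth. In control replicates 2 and 3, 3 counts were 0.488 and 0.484 per 1000000 of total counts, or 0.372 and 0.395 CPM. Over the 3 control libraries together, control was set at a floor of 3 counts for the group. Against this floor, miR-214-5p was 6.61-fold higher in RUNX1 libraries per total count and 10.8-fold higher with TMM. The RUNX1 count was taken as exact there, so these 5p ratios are not strict lower bounds. For miR-214-3p, with 1 control count, the ratio was 26.5 per total count (95% exact interval 4.57 to 1062) and 43.2 with TMM (7.47 to 1735), and for both arms 46.3 (8.13 to 1846) and 75.6 (13.3 to 3016). These intervals and floors cover counting error only, the floors on the control side alone, and not the spread between transductions.

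Neither miR-214 arm alone had counts enough for edgeR's filter on low counts, which 947 small RNAs passed. Of the 6 microRNAs, only miR-199b-5p passed, and 0 of this 1 was called altered, for which the P-value had to be under 0.05 and the fold change at or beyond 0.5 on the log2 scale, either way. Of all 947 small RNAs tested, 57.6% were called and 28% were called up, and nothing is read from the microRNAs' count against these shares. With both arms summed to 1 entry, miR-214 passed the filter, through its RUNX1 libraries alone, and its fitted log2 fold change was 5.87 (SE 0.681), given as a description with no test. Without RUNX1 replicate 3 it was 5.68, and without control replicate 2, which holds the single control count, it was 7.89, a value that depends on the prior count because control is then at 0 throughout. Fitted with no filter among the 3084 small RNAs with at least 1 count, the log2 fold change of miR-214-3p was 5.09 (SE 0.804), while that of miR-214-5p (6.68, SE 1.15) depends on the prior count and is no bound. In either direction, the CPM of control and RUNX1 libraries did not overlap for 27.3% of these 3084.

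The arms of miR-214 were both present in every RUNX1 library. The 3p arm took 46.7% of miR-214 counts in RUNX1 replicate 1 (21 of 45, 95% exact Clopper-Pearson interval 31.7% to 62.1%), 47.4% in replicate 2 (9 of 19, 24.5% to 71.1%) and 73.2% in replicate 3 (30 of 41, 57.1% to 85.8%). The arms were thus near equal in 2 libraries and 3p was the higher in replicate 3, the library that stood apart across small RNAs, with intervals that overlapped between all 3. Pooled over these libraries the 3p share was 57.1% (60 of 105, 47.1% to 66.8%). A share within a hairpin does not depend on the scaling of the libraries, and control cells, with 1 count, gave no usable share.

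Counts of at most 1 over the control libraries together with at least 9 in every RUNX1 library, limits taken from the miR-214 values themselves, were met by 6 entries, all of them microRNAs. Entries with a similar or larger shift at other depths fall outside these limits, among them miR-143-5p. Besides the miR-214 arms these were miR-1, a striated muscle microRNA, with 142 counts in total, miR-3617-5p with 62, miR-582-3p with 52 and miR-181b-3p with 43. For miR-1 the control libraries held 0, 1 and 0 counts and the RUNX1 libraries 70, 29 and 42, a separation that its choice fixed. RefSeq held no sequence under the name miR-1, and the sequence named miR-1-3p is at 2 loci. How reads of such sequences were counted is not given in the sources used here.

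miR-199b-5p, the 5p arm of the DNM1 hairpin, was the abundant entry, with 15644 of the 15753 counts of the 6 microRNAs. Control replicates 1, 2 and 3 held 785, 2587 and 2614 counts of it, and the RUNX1 replicates 5202, 2537 and 1919. By counts it ranked from 84 to 90 among the 2596 microRNA entries in control libraries and 89, 92 and 106 in the RUNX1 libraries. It was therefore among the better covered microRNAs of both conditions.

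In CPM, miR-199b-5p was at 375, 321 and 344 in control and at 451, 406 and 280 in RUNX1 libraries, with means of 347 ± 27.3 and 379 ± 88.6 (SD, n = 3 each). RUNX1 replicates 1 and 2 lay above all control libraries and replicate 3 below them, so the conditions overlapped, whereas the CPM of 64.8% of all 947 small RNAs tested did not. The log2 fold change was 0.13 (SE 0.182) and was not called. Without RUNX1 replicate 3 it was 0.40 (SE 0.106), still under the fold threshold.

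In counts per 1000000 of the library total, the same microRNA stood at 485, 421 and 422 in control and 341, 298 and 242 in RUNX1 libraries, with means of 442 ± 36.9 and 294 ± 49.6 (SD, n = 3 each). On that scale every RUNX1 library lay below every control library. Scaled by library size only, the log2 fold change was -0.59 (SE 0.158) and called down, and with TMM factors from microRNAs alone it was -0.07 (SE 0.172) and not called. The scaling moved small RNAs in general by the same order: the median log2 fold change of all 947 was -0.06 with TMM, -0.26 with TMM from microRNAs and -0.76 with library size only. Relative to that median, miR-199b-5p lay higher in each case. The direction of miR-199b-5p thus reversed between scalings, and that of summed miR-214, from 5.28 with library size only to 5.99 with DESeq2, did not.

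**Figure D1:**
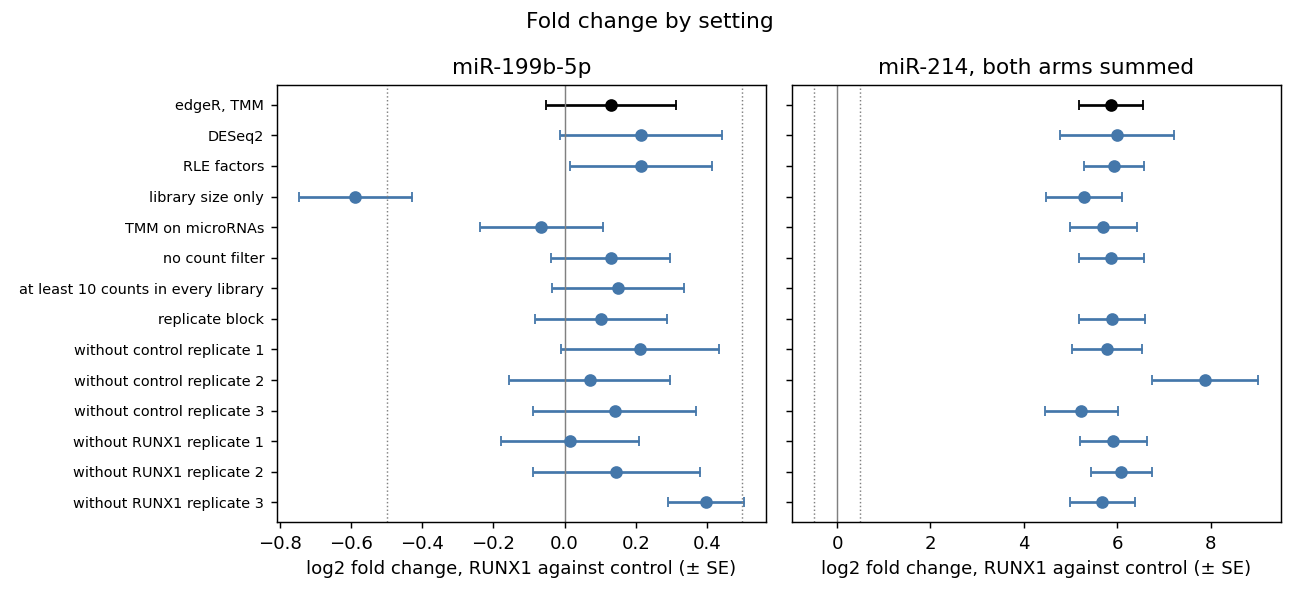
Log2 fold change of miR-199b-5p and of miR-214 with both arms summed, RUNX1 against control, in each processing, with bars for ± SE. The solid line is 0 and the dotted lines are the fold thresholds of -0.5 and 0.5. miR-199b-5p lies at 0.13 with TMM and at -0.59 with library size only, whereas miR-214 lies between 5.24 and 7.89. With at least 10 counts required in every library, summed miR-214 has no value.

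The microRNAs whose level followed that of miR-199b-5p most closely over the 6 libraries, by Pearson's r of log2 CPM among 597 other microRNAs, were miR-127-3p (r = 0.945), miR-15b-5p (0.890), miR-4772-5p (0.873), miR-494-3p (0.854) and miR-501-5p (0.851). The 6 points share library depth and scaling, and r is given as a description. miR-127-3p, from the imprinted DLK1-DIO3 region, was at 378 ± 24.4 CPM in control and 435 ± 110 CPM in RUNX1 libraries (SD, n = 3 each), a level close to that of miR-199b-5p. None of the 5 was called, and their log2 fold changes ran from -0.04 to 0.30.

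The remaining miR-199 entries were empty or nearly so in both conditions. miR-199a-5p and miR-199b-3p had 0 counts in all 6 libraries, and miR-199a-3p had 2 and 1 counts in RUNX1 replicates 1 and 2 and 0 elsewhere. Over the 45634804 counts of all libraries, a count of 0 allows a level of up to 0.0657 per 1000000, a limit that covers counting error only. Summed over the miR-199a and miR-199b names, which removes the choice between identical sequences, the 3p arm still held 3 counts. Its share of all miR-199 counts was 0% in each control library (upper 95% exact limits 0.141% to 0.469%), 0.0384% in RUNX1 replicate 1, 0.0394% in replicate 2 and 0% in replicate 3. With miR-199b left out, the 3 counts that remained were all 3p.

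These empty entries were those with a mature sequence at several loci. RefSeq held a mature sequence for 2262 of the 2576 human microRNA names in the files. Of the 2102 names with a sequence at 1 locus, 37.0% had 0 counts in all libraries and 39.0% had at least 10. Of the 117 names at 2 loci, 67.5% had 0 counts and 19.7% had at least 10. Of the 43 names at 3 or more loci, 86.0% had 0 counts, and 1 entry (2.33%) had at least 10. That entry was let-7a-5p, a microRNA abundant in most human cells, with 207 counts in total.

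Several other multilocus microRNAs, picked as examples, had few counts too: miR-16-5p, at 2 loci, had 305 counts, miR-24-3p had 20, miR-181a-5p had 6 and miR-125b-5p had 3. Of the multilocus names, 6 had at least 1000 counts, all at 2 loci: miR-92a-3p with 982584 counts, miR-128-3p with 4495, miR-19b-3p with 2539, let-7f-5p with 2058, miR-194-5p with 1938 and miR-103a-3p with 1564. How reads that match several loci were counted is not given in the sources used here, and the part of this in the miR-199a and miR-199b-3p zeros was not tested. The zeros are accordingly values of these count tables, and the level of miR-199a and of the miR-199 3p arm in the cells cannot be read from them. The miR-214 sequences are at 1 locus each.

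**Figure D2:**
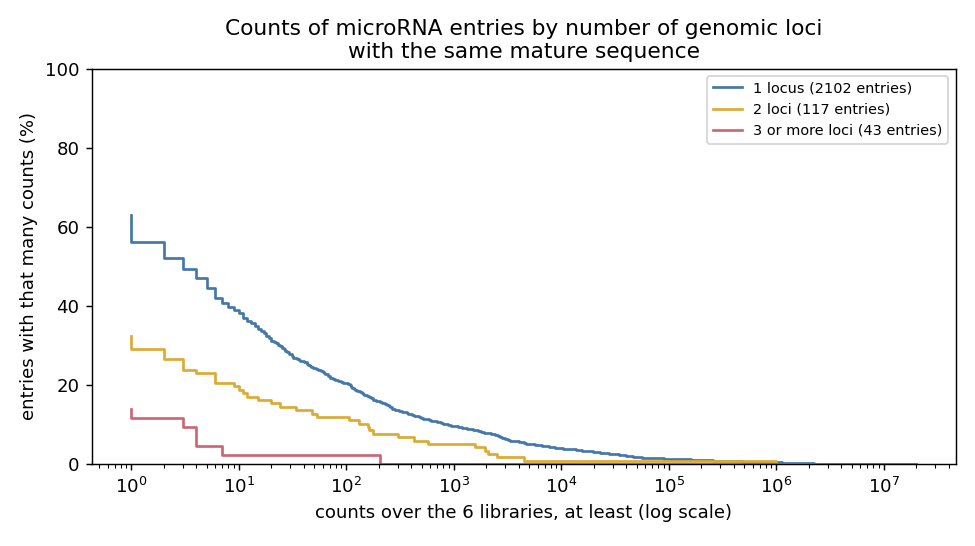
Share of human microRNA entries (%) that reach a given number of counts over the 6 libraries (log scale), for mature sequences at 1 locus (2102 entries), 2 loci (117) and 3 or more loci (43). At 10 counts the curves stand at 39.0%, 19.7% and 2.33%, and the curve for 3 or more loci ends at 207 counts.

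The other microRNA entries within the dynamin genes, 7 in all, were also low, and 0 of them passed the filter. miR-3154, whose hairpin lies 116 bases from MIR199B on the same strand, was counted 0, 5 and 3 times in the control libraries, and 31, 9 and 7 times in the RUNX1 libraries. In the fit with no filter its log2 fold change was 1.99 (SE 0.586, edgeR adjusted p = 0.0045), with adjusted p from 0.0025 with RLE factors to 0.13 with library size only, where it was 1.29. P-values of the fit with no filter rest on a spread shared across entries. Unlike miR-199b-5p of the same intron, the CPM of miR-3154 did not overlap between the conditions, as for 27.3% of the 3084 small RNAs with at least 1 count. Its 0 in control replicate 1 tells little, because 3 counts there are 1.43 CPM, above its 1.02 CPM in RUNX1 replicate 3. A test of the difference between both microRNAs was not made.

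miR-6793-3p, from DNM2, was counted 3, 3 and 0 times in the control libraries, and 17, 8 and 12 times in the RUNX1 libraries. Its log2 fold change was 2.03 (SE 0.663, edgeR adjusted p = 0.013, no filter), its CPM overlapped between the conditions, and with library size only it was 1.34 (adjusted p = 0.18) and not called. miR-6793-5p had 15, miR-4748 had 23 and miR-638 had 0 counts in total, and neither miR-6793-5p (log2 fold change 0.96) nor miR-4748 (0.25, and -0.43 with library size only) was called. The miR-3120 arms from the strand opposite MIR214 were not called either (-1.19 and -0.44). Of the 6 entries with counts, 2 were thus called up and 0 down in a fit that called 24.9% of small RNAs, and 11.6% up.

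MicroRNAs of other genes that share a seed with these families were nearly empty as well. miR-761 and miR-3619-5p, with the seed CAGCAGG of miR-214-3p, had 1 and 3 counts in total, and miR-3129-5p, with the seed CAGUAGU of the miR-199 3p arm, had 1 count. None of the 3 was called in the fit with no filter. In the RUNX1 libraries the miR-214-3p seed was thus carried by miR-214-3p for 60 of 62 counts.

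The promoters of the dynamin genes and of DNM3OS, each from 250 bases before to 50 after the start in RefSeq, were searched on both strands for the letters TGTGGT and TGCGGT, the core that RUNX proteins are known to bind. DNM1, DNM2, DNM3 and DNM3OS held 0 of either motif in this window, and 13.1% and 7.29% of all 35116 promoters of that length held TGTGGT and TGCGGT. This says only that these letters are not in these windows. The miR-199 and miR-214 hairpins lie on the strand opposite DNM1, DNM2 and DNM3. Of the named windows, only that of DNM3OS thus belongs to a transcript on their strand, and none was examined for MIR199B by itself.

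The families are known from mesenchymal tissue, so a list of 12 mesenchyme-associated microRNA entries was examined beside them. Like the other lists it was made with results of these data known, so its calls are no independent support. Of these, 9 passed the filter, 4 were called up, 2 down and 3 were not called, against 28% up and 29.6% down of all 947. The median log2 fold change of the 9 was 0.40, beside -0.06 for all small RNAs tested.

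miR-143-3p, a microRNA of smooth muscle and stroma, was at 20.1, 18.9 and 17.2 CPM in control and 2039, 2050 and 1865 CPM in RUNX1 libraries. Its log2 fold change was 6.74 (SE 0.156, edgeR adjusted p = 8.6e-09), larger than that of any other listed entry tested. Its other arm, miR-143-5p, did not pass the filter, with 0 counts in each control library and 30, 8 and 5 in the RUNX1 libraries, a profile near that of miR-214-5p. miR-145, made from the same transcript as miR-143, moved apart by arm, with a log2 fold change of 0.81 (SE 0.147, adjusted p = 0.0012) for miR-145-5p and -0.81 (SE 0.151, adjusted p = 0.0015) for miR-145-3p. The call of miR-145-5p was lost with library size only (0.11, adjusted p = 0.46).

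miR-10b-5p, from the HOXD cluster, was up by 1.94 (SE 0.202, adjusted p = 4.5e-05) and miR-140-5p, known from cartilage, by 1.36 (SE 0.191, adjusted p = 0.00029) on the log2 scale. miR-100-5p was lower, at -1.94 (SE 0.341, adjusted p = 0.0011). The log2 fold changes of miR-140-3p (0.40), miR-152-3p (0.38) and miR-21-5p (0.31) were under the fold threshold and turned to -0.31, -0.32 and -0.40 with library size only. miR-218-5p and miR-125b-5p, each at 2 loci, had 3 counts and were not tested. The listed microRNAs therefore did not move in 1 direction.

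Summed marker microRNAs of several other cell types were also higher in the RUNX1 libraries, beside miR-214. The summed CPM of 5 mesenchyme markers (both arms of miR-143 and miR-145, and miR-218-5p) ranged from 138 to 144 in control and from 1980 to 2196 in RUNX1 libraries, with 2 called up and 1 down of 3 tested. The mesenchyme sum followed miR-143-3p (18.7 ± 1.42 CPM in control and 1985 ± 103 in RUNX1, SD, n = 3 each). Mean miR-145-5p went from 54.5 CPM in control to 95.9 CPM in RUNX1, and mean miR-145-3p from 67.9 to 38.9 CPM. The summed CPM of 7 muscle marker entries ranged from 3.16 to 5.74 in control and from 14.6 to 16.2 in RUNX1 libraries. Of these entries, 2 of 2 tested were called up. The muscle sum followed miR-1 (mean 0.0413 CPM in control and 5.61 in RUNX1) and miR-499a-5p (4.37 and 8.97). miR-206 was at 0 in all libraries, and miR-133a-3p and miR-133b held 6 and 12 counts in total. The 8 epithelial entries summed to 123 to 132 in control and 336 to 388 CPM in RUNX1 libraries, with 4 of 5 tested called up. The largest rises in mean CPM among them were those of miR-375 (70.0 to 185) and miR-205-5p (0.723 to 70.4). Mean miR-200b-3p went from 17.3 CPM in control to 13.1 CPM in RUNX1 and was not called. The 4 neural entries summed to 0.956 to 2.50 CPM in control and 3.65 to 6.56 CPM in RUNX1 libraries. The neural sum followed miR-219a-5p (1.43 ± 0.512 CPM in control and 5.32 ± 1.45 in RUNX1, SD, n = 3 each), while miR-9-5p and miR-9-3p were at most at 0.263 CPM in any library and miR-124-3p was at 0. The miR-9 sequences are at 3 loci each, so their low counts cannot be read as levels in the cells. The same limit holds for miR-219a-5p and miR-133a-3p, at 2 loci each. It holds for miR-1 too if that is the sequence named miR-1-3p, also at 2 loci. No sequence was found under the name miR-124-3p, so its number of loci is not given here. The liver marker miR-122-5p was at 0.124 to 1.05 CPM in control and 0.320 to 1.13 CPM in RUNX1 libraries, so it overlapped. The 5 erythroid entries (both arms of miR-144 and miR-486, and miR-451a), which check the labelled cell type, were present at 4476 to 5105 CPM in control and 2385 to 3783 CPM in RUNX1 libraries, with 3 of 5 tested called down and 1, miR-144-3p, called up. Beside the calls of these marker sets, 28% of all 947 small RNAs tested were called up and 29.6% down. The part of other cell types in the miR-214 counts was not tested.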

How the data were processed

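Small RNA of K562 cells was sequenced in 3 control and 3 RUNX1 libraries. The authors demultiplexed the reads with CASAVA 1.8.2, and the submitters' processing notes name the genome build hg19. The study identified altered small RNAs with the OASIS platform and deposited whole-number counts per annotated small RNA, without normalization. The aligner and the treatment of reads that match several loci are not given in the sources used here. Each file has 5 rows that name no RNA, which held 0 counts (0% of the total) and were left out.

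Samples were grouped and numbered by their titles, although the file of RUNX1 replicate 1 bears the number of replicate 2 in its library name. The 6 microRNAs and all lists were chosen with earlier results of these data known. The deposited counts were analysed with edgeR 4.0.16 (with limma 3.58.1) and DESeq2 1.42.0 in R 4.3.3. edgeR's filterByExpr selected the small RNAs tested (minimum count 10, minimum total count 15). They were scaled by TMM and fitted over all 6 libraries with glmQLFit and glmQLFTest on condition alone. A call needed a P-value under 0.05 and a change of 0.5 or more on the log2 scale, the thresholds of the study, and P-values were adjusted by Benjamini-Hochberg over the whole table. The SE was taken as the log2 fold change over the square root of F. The fit was tested on simulated data. The smallest library held 1618248 counts and the largest 15245007, and the floor was set at 3 counts. Shares and ratios have 95% exact intervals.

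Named were the 6 microRNAs, the other microRNAs in the dynamin genes and those sharing a seed, where they had counts, the mesenchyme-associated list, and the 5 microRNAs most like miR-199b-5p (log2 CPM with a prior count of 2). Others are named where a count of 6 or fewer includes them, and were chosen after their values were seen. Hairpin and host positions are from GENCODE 29 on GRCh38, and mature sequences and promoters from RefSeq on GRCh38.p14. hg19 coordinates were not used. Alternatives were DESeq2, RLE factors, library size only, TMM from microRNAs, a minimum of 10 counts in each library, no filter, the adjusted P-value, the replicate number as a block, summed miR-199 3p entries, miR-199b left out of the shares, and each library left out. RLE factors, library size only and the replicate block without a filter were added after the data were seen.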

Additional observations from a re-analysis of the deposited data

How the results depend on the processing

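Of the 6 microRNAs, 0 were called with the filter and TMM, 1 with library size only (miR-199b-5p, down), 2 with no count filter, and 0 to 2 with a library left out. The count of 2 came with each control library left out, when 3 of the 6 passed the filter, against 1 with each RUNX1 library left out. The entries that passed in addition were the miR-214 arms. The filter's limit is set by the median library size and the size of the smaller group, which change when a library is left out. With a library left out, the calls thus followed which entries passed the filter. Since these microRNAs were chosen with this contrast known, the counts are a description. miR-199b-5p reversed to -0.59 with library size only and to -0.065 with TMM from microRNAs, as did the summed 5p entries (-0.59 and -0.067), and ranged from 0.02 to 0.40 with a library left out. Summed miR-214 ranged from 5.24 to 7.89 with a library left out and had no value with at least 10 counts in every library. The other dynamin gene microRNAs had 0 calls with the filter and 2 with no count filter. The 3p share of miR-199 moved to 100% in RUNX1 replicate 1, in replicate 2 and over all RUNX1 libraries when miR-199b was left out, on 2, 1 and 3 counts. Of 947 small RNAs, 545 were altered (265 up, 280 down), 516 with DESeq2, 386 with at least 10 counts in every library, 767 of 3084 with no filter and 521 to 612 with a library left out, and library size only gave 120 up and 521 down. Mesenchyme-associated calls numbered 6, and 5 to 8 over the alternatives.

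Same-numbered libraries of both conditions did not deviate together (correlations of -0.06, -0.08 and -0.00036 against -0.02 to 0.08 for different numbers). No pairing by number was thus seen, although 3 libraries a condition are too few to exclude it. With the replicate block, 546 small RNAs were altered, 0 of the 6 microRNAs were called, miR-199b-5p was at 0.10 and summed miR-214 at 5.89. Of 27 listed or named other microRNAs that passed the filter, the block changed the call of 0, and miR-3154 (1.75) and miR-6793-3p (1.91) kept theirs in a fit with the block and no filter, added after the data were seen. With 3 libraries a condition, p-values of the filtered fit measure the spread between these transductions. Part of that estimate is drawn from the other entries. In the fit with no filter p-values rest almost wholly on a spread shared across entries. There the adjusted p of miR-143-3p was 7.7e-209, against 8.6e-09 with the filter (edgeR). The adjusted p of miR-3154 and miR-6793-3p in that fit therefore do not measure these entries' own spread. Counts under 10 limit what can be said of single miR-214 libraries, and the control side rests on 1 count.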
